A study of Mus musculus with 9 samples.

Results

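Expression of 8 transcription factors that set or hold back osteoblast fate was followed in MC3T3-E1 cells treated with organic or inorganic phosphate. The genes were *Runx2*, *Sp7*, *Dlx5*, *Dlx3*, *Msx1*, *Msx2*, *Twist1* and *Runx1*, and each had a single row among the 55416 genes counted. They were chosen by name for their known roles, with earlier results of these data known, as were the further gene lists below. All 8 passed the filter on low counts that left 13679 genes to test. The cells are an established line from mouse calvarial bone, labelled as wild-type pre-osteoblasts, and come from a single subclone. All groups were differentiated with dexamethasone, ascorbic acid and β-glycerophosphate (BGP) in αMEM, a medium that itself contains sodium phosphate. The study's methods withdraw BGP from the medium for the last week, whereas the labels do not mention a withdrawal, and either way the Control cells had been exposed to BGP earlier. On day 27, cells received 4 mM BGP as organic phosphate, 4 mM NaHPO4 (a mixture of Na2HPO4 and NaH2PO4) as inorganic phosphate, or neither (Control), and polyA RNA was sequenced after 16 h, with 3 libraries per group. The labels do not state whether these libraries came from separately grown cultures, so the p-values measure the spread between these libraries only.

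RUNX2 and SP7 (osterix) act in sequence during bone formation. RUNX2 binds DNA together with its partner CBFβ and commits mesenchymal cells to the osteoblast lineage, and SP7 acts downstream of it and is required for osteoblasts to mature. The homeodomain factors DLX3, DLX5, MSX1 and MSX2 respond to bone morphogenetic proteins (BMPs) and compete for related AT-rich sites, DLX5 as an activator and the MSX proteins mostly as repressors, while the helix-loop-helix protein TWIST1 holds RUNX2 activity in check in early cells and RUNX1, best known from blood formation, is also found in skeletal progenitors.

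The libraries held between 21390839 and 28234404 counts, and the 10 most abundant genes took 15.9% to 17.7% of each. Depth was 21390839 to 25646046 counts in Control, 22331071 to 23546609 with BGP and 25203779 to 28234404 with NaHPO4. All NaHPO4 libraries were thus deeper than all BGP libraries, whereas the range of Control overlapped with both. The share of the 10 most abundant genes was lowest with NaHPO4, at most 16.5% against at least 16.6% in the other groups. The cells carried the markers of their label: all 12 osteoblast and osteocyte markers were tested, with a summed level of 109230 to 116311 TMM-normalized CPM (counts scaled to a common library size) in Control libraries, 106690 to 112821 with BGP and 96624 to 103436 with NaHPO4. The NaHPO4 libraries thus lay below all others for this sum. Most of it was *Col1a1* and *Col1a2*, with means of 43285 and 56380 CPM in Control. With NaHPO4, 1 of the 12 rose (*Dmp1*) and 6 fell at an adjusted p below 0.05 in edgeR's quasi-likelihood test. Among all tested genes, 3.43% rose and 3.95% fell. *Sost* was near the floor, with 9 to 36 counts per library. Of the markers of other lineages, 0 of 6 skeletal muscle genes and 0 of 5 endothelial genes passed the filter, with sums of at most 0.584 and 0.187 CPM, and *Myod1*, *Myog*, *Myf5*, *Pax7*, *Kdr*, *Tie1* and *Emcn* had 0 counts in every library. Of the blood cell markers 2 of 5 passed the filter, the sum was 1.52 to 2.48 CPM and *Itgam* had 0 counts, and of the adipocyte markers 1 of 6 passed, with a sum of 9.97 to 16.2 CPM and *Cidec* at 0. Chondrocyte markers were higher, with 3 of 6 past the filter, *Matn1* at 0 and sums of 248 to 306 CPM (Control), 340 to 446 CPM (BGP) and 185 to 264 CPM (NaHPO4). Most of this was *Col2a1*, the collagen of cartilage, which rose with BGP (log2FC 0.50, edgeR's quasi-likelihood test, adjusted p = 0.000754) and fell with NaHPO4 (log2FC -0.45, edgeR's quasi-likelihood test, adjusted p = 0.00141). The other 2 chondrocyte markers tested did not pass with either treatment, with a log2FC of up to 1.27 with BGP and 0.81 with NaHPO4. Whether shifts in marker levels or in cell composition take part in the results below was not tested.

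The 8 factors differed more from each other than between treatments. Per kilobase of exon, which allows levels of different genes to be compared, *Sp7* was the most abundant at 144 CPM per kb (mean of 9 libraries, range 133 to 150), followed by *Dlx5* at 52.8 (48.5 to 55.9), *Runx2* at 46.7 (43.4 to 48.7) and *Twist1* at 36.1 (32.9 to 37.6). *Msx1* at 7.69 (6.66 to 8.79) and *Dlx3* at 6.79 (5.80 to 7.92) formed a middle tier. *Msx2* reached 2.02 (1.56 to 2.37) and *Runx1* 0.452 (0.401 to 0.598). Among the 13631 tested genes with an annotated length, *Sp7* ranked 133 and *Runx1* ranked 11756. The library ranges of neighbours in this order did not overlap, with 2 exceptions. Those of *Dlx5* and *Runx2* overlapped, although *Dlx5* was the higher gene within each of the 9 libraries, and those of *Msx1* and *Dlx3* overlapped, with *Msx1* higher in 7 of 9. Dividing by the longest transcript in place of all exonic bases changed the values, from 144 to 161 for *Sp7* and from 0.452 to 0.827 for *Runx1*, and left the order as it was.

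**Figure D1:**
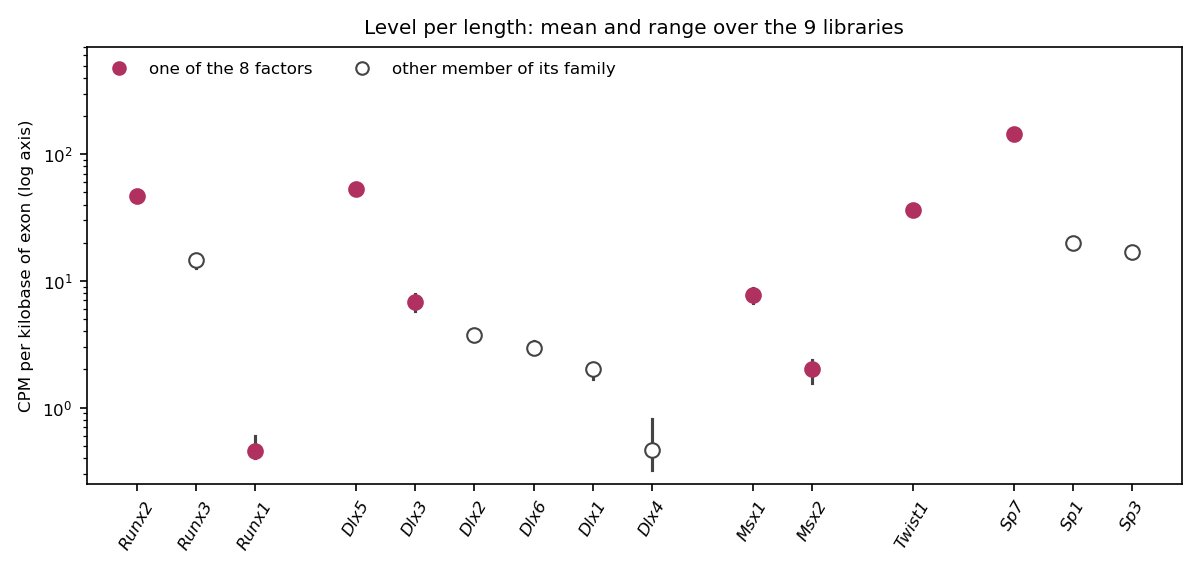
Level of the 8 factors (filled) and of other members of their families (open) in CPM per kilobase of exon, on a log axis; points are means and bars the lowest to highest of the 9 libraries. *Sp7* lies at 144, *Dlx5*, *Runx2* and *Twist1* between 36.1 and 52.8, and *Runx1* at 0.452. Family members with a mean at or below 0.2, and Sp factors that were not considered, are not drawn.

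Within each family, or the part of it considered for Sp, a single factor made up most of the signal. *Runx2* held 74.4% to 77.4% of the summed RUNX level per kb, *Runx3* 21.8% to 24.6% and *Runx1* at most 0.914%. *Dlx5* held 75.2% to 78.5% of the DLX level, with *Dlx3* next at 8.32% to 11.3%, and *Msx1* held 77.2% to 82.7% of the MSX level. *Twist1* held at least 99.8% of the TWIST level, since *Twist2* had 1 to 11 counts per library. Of the Sp factors considered, which leave out *Sp2*, *Sp4* and *Sp5*, *Sp7* held 78.4% to 81.1%. This was above the widely expressed *Sp1* (10.1% to 11.8%) and *Sp3* (8.64% to 10.2%).

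*Runx2* (ENSMUSG00000039153, chr17:44806874-45125684 on the minus strand of GRCm39) is a determinant of the lineage that acts upstream of *Sp7*. Its level was 425, 422 and 416 CPM in Control libraries 1 to 3, 431, 415 and 424 CPM with BGP and 412, 390 and 384 CPM with NaHPO4. The BGP libraries overlapped with Control, whereas all NaHPO4 libraries lay below both other groups. Compared to Control, the log2 fold change (log2FC) was 0.0072 with BGP (standard error, SE, 0.0329, n = 3 per group, edgeR's quasi-likelihood test, adjusted p = 0.954). With NaHPO4 it was -0.09 (SE 0.0328, n = 3 per group, edgeR's quasi-likelihood test, adjusted p = 0.0892), which did not pass a false discovery rate (FDR) of 0.05 but did without NaHPO4 replicate 1 (edgeR adjusted p = 0.0218). Between the phosphates *Runx2* had a log2FC of 0.10 (SE 0.0328, edgeR's quasi-likelihood test, adjusted p = 0.0761), which likewise passed only without that library (edgeR adjusted p = 0.0161). The antisense transcript *Runx2os1* covers 519 exonic bases of *Runx2* (5.87% of its exons) and *Supt3* covers 362. How the counting treated strand is not given in the sources used here, so reads in these bases may have been assigned to either gene. *Runx2os1* had 23 to 67 counts per library against 9086 to 11314 for *Runx2*, and its mean level was 2.29 ± 0.556 CPM in Control and 1.29 ± 0.347 CPM with BGP (SD, n = 3; log2FC -0.83, edgeR's quasi-likelihood test, adjusted p = 0.121).

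The bases before the distal start of *Runx2* are shown because they hold the RUNX core, ACCACA, read on either strand (TGTGGT on the other). Windows of 250 bases before to 50 bases after the start, from RefSeq on GRCm38.p6 and not on the build of the counts, were found for 5 of the 8 genes. *Sp7*, *Dlx3* and *Dlx5* were not matched. ACCACA occurs in 16.8% of all 32851 such windows. In the *Runx2* window it begins 80 bases before the start, in capitals below, and again 23 and 31 bases after it. The other motifs searched were TAATTA (a homeodomain core, in 5.29% of windows), GGGCGG or CCGCCC (a GC box, 35.7%) and CANNTG (an E-box, 72.3%, which overlaps ACCACA where ACCACATG is read), and of these the *Runx2* window held E-boxes only.
Runx2, 250 bases before the start, chr17:44814628-44814877, minus strand: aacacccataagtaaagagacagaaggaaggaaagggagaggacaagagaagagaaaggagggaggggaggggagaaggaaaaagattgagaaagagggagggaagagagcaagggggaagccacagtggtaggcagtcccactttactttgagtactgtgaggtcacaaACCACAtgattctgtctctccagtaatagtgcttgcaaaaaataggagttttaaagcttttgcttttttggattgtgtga
The window of the distal start of *Runx1* held the same core at 28 and 36 bases after the start. Around these positions both genes share a run of 22 bases, printed with the core in capitals.
Runx2 and Runx1, shared run: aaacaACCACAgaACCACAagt
A match describes the letters of the window and not binding in these cells.

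*Sp7* (ENSMUSG00000060284, chr15:102265038-102279370, minus strand) was the only factor of the 8 to pass between the phosphates. Control libraries held 557, 538 and 565 CPM, BGP libraries 570, 568 and 560 CPM and NaHPO4 libraries 527, 523 and 504 CPM. All 3 NaHPO4 libraries were below all 6 others. The mean was 566 ± 5.31 CPM with BGP against 518 ± 12.1 CPM with NaHPO4 (SD, n = 3), 9.18% higher with BGP (95% interval 4.45% to 14.1%; log2FC 0.13, SE 0.0315, edgeR's quasi-likelihood test with Benjamini-Hochberg adjustment, adjusted p = 0.00994). Neither treatment passed compared to Control. The log2FC was 0.03 with BGP (SE 0.0316, edgeR's quasi-likelihood test, adjusted p = 0.726) and -0.09 with NaHPO4 (SE 0.0315, edgeR's quasi-likelihood test, adjusted p = 0.061), from a Control mean of 553 ± 13.7 CPM. The value with NaHPO4 passed in DESeq2 (adjusted p = 0.0289), without Control replicate 2 (edgeR adjusted p = 0.0358) and without NaHPO4 replicate 1 (edgeR adjusted p = 0.0489). The difference between the phosphates did not pass when libraries were scaled by total counts instead of TMM (log2FC 0.10, edgeR adjusted p = 0.0544), without BGP replicate 1 (edgeR adjusted p = 0.0548) or without NaHPO4 replicate 3 (edgeR adjusted p = 0.0717). It passed in the other 15 of 18 alternatives, some of which left out a Control library and so kept both compared groups whole. As RNA was pooled over all cells of a well, fewer cells expressing a gene and less RNA per cell cannot be told apart, here and for every other gene.

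*Dlx5* (ENSMUSG00000029755, chr6:6877804-6882092, minus strand), an activator of *Runx2* and *Sp7*, was the only factor of the 8 that passed with NaHPO4 compared to Control. Its level was 125, 125 and 127 CPM in Control libraries, 120, 119 and 121 CPM with BGP and 110, 115 and 118 CPM with NaHPO4. The 3 groups did not overlap, with Control highest and NaHPO4 lowest. NaHPO4 lowered the mean from 126 ± 1.29 to 114 ± 3.88 CPM (SD, n = 3), a change of -9.07% (95% interval -13.7% to -4.25%; log2FC -0.14, SE 0.0367, edgeR's quasi-likelihood test, adjusted p = 0.0142). The values with BGP did not pass against either group, with a log2FC of -0.06 compared to Control (SE 0.0371, edgeR's quasi-likelihood test, adjusted p = 0.477) and 0.07 compared to NaHPO4 (SE 0.0369, edgeR's quasi-likelihood test, adjusted p = 0.313). The fall with NaHPO4 did not pass with scaling by total counts (log2FC -0.11, edgeR adjusted p = 0.0519), without Control replicate 3 (edgeR adjusted p = 0.0636) or without NaHPO4 replicate 1 (edgeR adjusted p = 0.0819), and passed in the other 15 of 18 alternatives. Some of these left out a BGP library and so kept both compared groups whole.

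*Dlx3* (ENSMUSG00000001510, chr11:95010937-95016122, plus strand), a homeodomain activator of later osteoblast genes, had 351 to 488 counts per library. It was present at 18.2, 15.3 and 17.5 CPM in Control libraries, 19.3, 20.7 and 18.8 CPM with BGP and 15.2, 15.9 and 19.1 CPM with NaHPO4. All BGP libraries were above Control, whereas NaHPO4 replicate 3 lay among the BGP libraries. BGP gave a log2FC of 0.21 compared to Control (SE 0.0864, edgeR's quasi-likelihood test, adjusted p = 0.263) and 0.23 compared to NaHPO4 (SE 0.085, edgeR's quasi-likelihood test, adjusted p = 0.113). Without NaHPO4 replicate 3 the latter was 0.34 and passed (edgeR adjusted p = 0.0226). NaHPO4 compared to Control gave -0.03 (SE 0.0862, edgeR's quasi-likelihood test, adjusted p = 0.912).

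The repressors of the MSX family did not pass in any comparison. *Msx1* (ENSMUSG00000048450, chr5:37977829-37981928, minus strand) was at 23.9, 24.1 and 27.5 CPM in Control libraries, 26.0, 21.8 and 21.2 CPM with BGP and 24.1, 23.9 and 28.0 CPM with NaHPO4, so that the groups overlapped. *Msx2* (ENSMUSG00000021469, chr13:53620914-53627110, minus strand) was at 6.22, 5.13 and 7.79 CPM in the Control libraries, 7.67, 5.88 and 6.40 CPM with BGP and 7.35, 6.35 and 6.99 CPM with NaHPO4. Control libraries alone spanned the range of the other 2 groups. Compared to Control, *Msx1* had a log2FC of -0.13 with BGP (95% interval -0.29 to 0.03) and 0.0036 with NaHPO4 (-0.15 to 0.16), and *Msx2* 0.05 (-0.23 to 0.34) and 0.10 (-0.17 to 0.38). The RefSeq window of *Msx2* was the only 1 of the 6 windows found to hold the homeodomain core TAATTA, in capitals, which starts 187 bases before the start.
Msx2, 250 bases before the start, GRCm38.p6 chr13:53472781-53473030, minus strand: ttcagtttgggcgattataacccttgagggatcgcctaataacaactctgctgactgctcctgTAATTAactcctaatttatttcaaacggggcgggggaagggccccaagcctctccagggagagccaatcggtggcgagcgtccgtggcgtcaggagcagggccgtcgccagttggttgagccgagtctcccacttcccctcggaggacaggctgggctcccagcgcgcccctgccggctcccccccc

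*Twist1* (ENSMUSG00000035799, chr12:34007645-34009828, plus strand) was at 60.8, 60.4 and 58.8 CPM in Control libraries, 54.4, 60.1 and 57.5 CPM with BGP and 62.1, 61.7 and 60.5 CPM with NaHPO4. All BGP libraries lay below all NaHPO4 libraries, and both groups overlapped with Control. BGP compared to NaHPO4 gave a log2FC of -0.10 (SE 0.0457, edgeR's quasi-likelihood test, adjusted p = 0.243) and did not pass. The sign in this comparison was also negative for *Msx1* (-0.14) and *Msx2* (-0.05), and positive for *Runx2*, *Sp7*, *Dlx5*, *Dlx3* and *Runx1* (0.09). *Runx1* (ENSMUSG00000022952, chr16:92398354-92623037, minus strand) was at 5.14, 5.96 and 5.08 CPM in the Control libraries, 7.58, 5.26 and 5.42 CPM with BGP and 6.01, 5.41 and 5.70 CPM with NaHPO4. A single library, BGP replicate 1, lay above the rest. Its log2FC with BGP was 0.17 (95% interval -0.12 to 0.46; edgeR's quasi-likelihood test, adjusted p = 0.661) and became -0.01 without that library. With 110 to 168 counts per library, counting error alone gives *Runx1* a coefficient of variation of 8.48%, against 13.4% observed over the 9 libraries. For *Sp7* these values were 0.869% and 4.29%. The observed values span all 3 groups and so also hold differences between them. Within groups *Sp7* varied by 2.47% (Control), 0.938% (BGP) and 2.33% (NaHPO4).

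**Figure D2:**
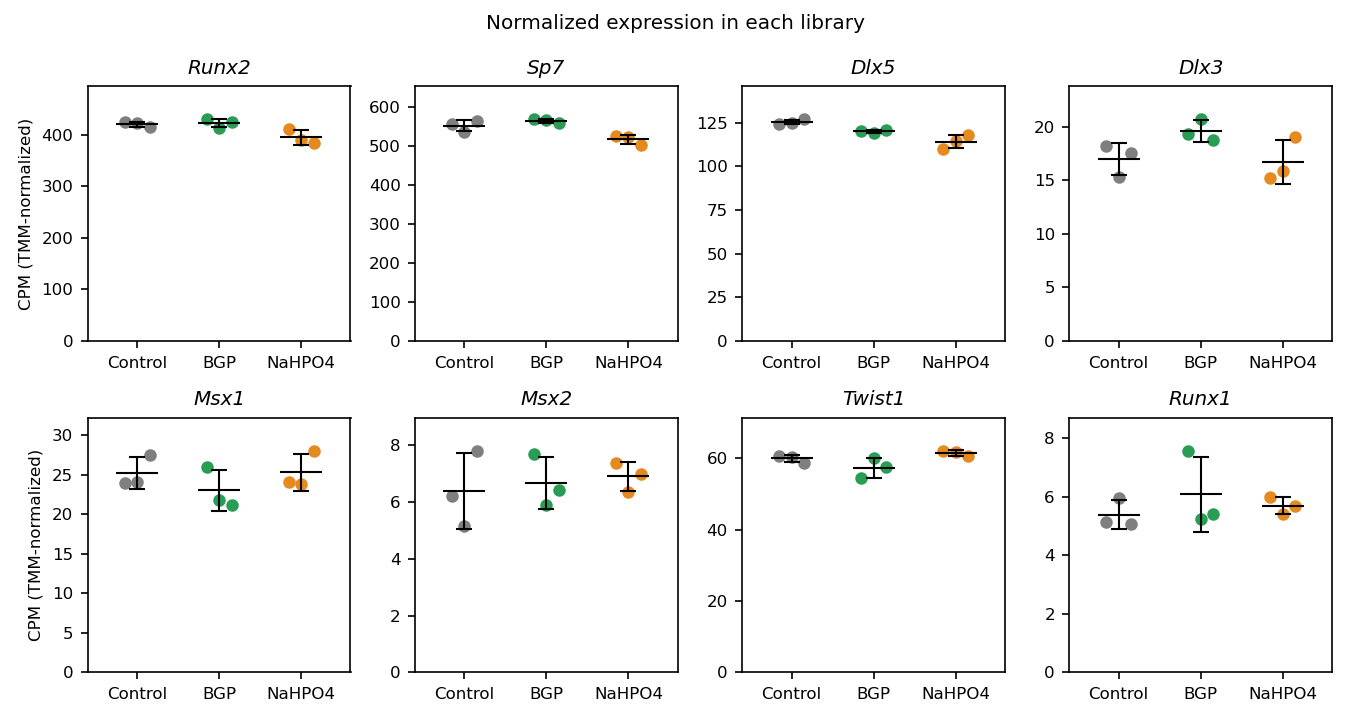
Normalized expression (CPM, axis from 0) of each factor in the 3 libraries of Control (gray), BGP (green) and NaHPO4 (orange); points are libraries, bars the mean and SD. *Sp7* and *Runx2* in NaHPO4 libraries (504 to 527 and 384 to 412 CPM) lie below all other libraries, and the *Dlx5* libraries are ordered Control, BGP, NaHPO4 without overlap.

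Counted over the 8 factors, BGP compared to Control moved 0 at an FDR below 0.05 in edgeR's quasi-likelihood test, where 2.53% of all tested genes passed. The likelihood ratio test, DESeq2 and limma also gave 0, and 1 of 8 (*Dlx3*) had an unadjusted edgeR p below 0.05, a level reached by 13.4% of tested genes. At that unadjusted level there were 3 of 8 with NaHPO4 (19.9% of tested genes) and 4 of 8 between the phosphates (16.9%). With NaHPO4 1 of 8 passed compared to Control (*Dlx5*, lower), against 7.38% of tested genes. Between BGP and NaHPO4 1 of 8 passed (*Sp7*, higher with BGP), against 5.38%. By the study's rule for differentially expressed genes (DEGs), which adds an absolute log2FC above 0.5, 0 of 8 were DEGs in the 3 comparisons (0.556%, 0.716% and 0.585% of tested genes). No conclusion about the list follows from counts this small.

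The size of the changes was bounded by the data. The 95% interval of the log2FC lay within 0.5 of 0 for all 8 factors in each of the 3 comparisons, as it did for 76.5%, 76.3% and 76.5% of tested genes. The bound farthest from 0 was 0.46, for *Runx1* with BGP. The median log2FC of the 8 was 0.02 with BGP and -0.01 with NaHPO4 compared to Control and 0.08 for BGP compared to NaHPO4, beside -0.0043, 9.7e-05 and -0.0018 over all tested genes. Compared to Control, all BGP libraries were higher for 1 of 8 factors (9.74% of tested genes) and lower for 1 (8.79%), and all NaHPO4 libraries were higher for 0 (11.6%) and lower for 3 (11.6%). Between the phosphates all BGP libraries were higher for 3 of 8 (10.8%) and lower for 1 (10.4%). These comparisons share libraries and are not independent of each other.

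**Figure D3:**
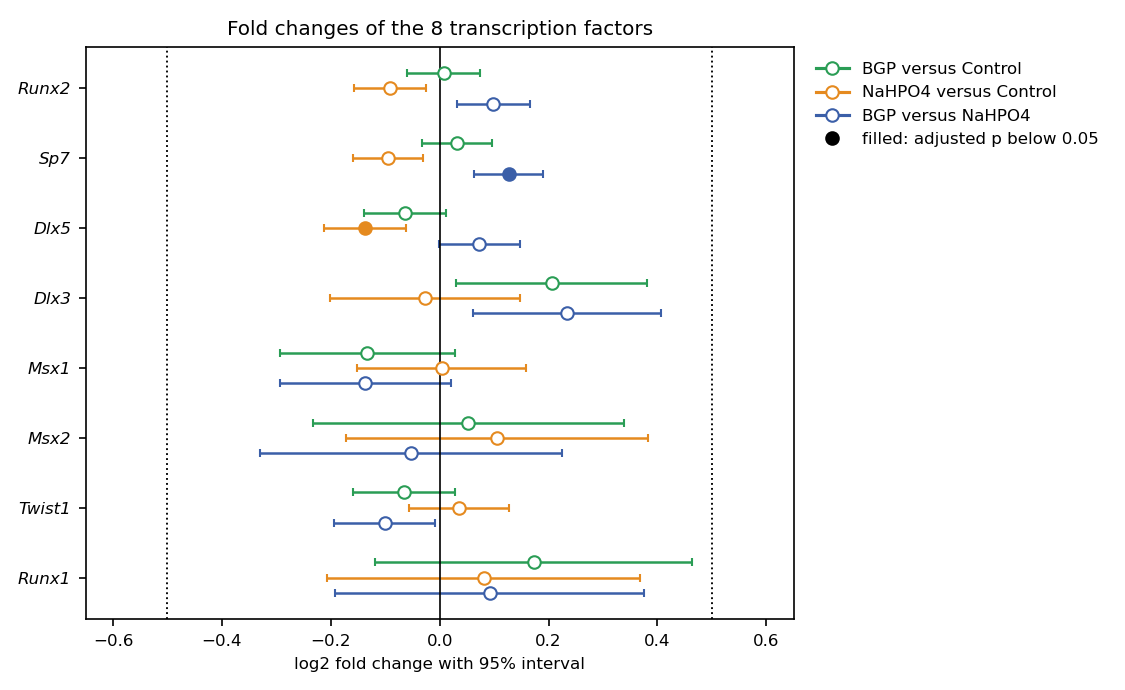
Log2 fold change of each factor (points) with its 95% interval (bars) for BGP compared to Control (green), NaHPO4 compared to Control (orange) and BGP compared to NaHPO4 (blue); filled points had an edgeR adjusted p below 0.05 and dotted lines mark a log2FC of 0.5 in each direction. The filled points are *Dlx5* at -0.14 and *Sp7* at 0.13, and no interval crosses a dotted line.

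Of 7 tested relatives of the 8 factors, *Runx3*, a RUNX factor active in cartilage and the immune system, was the only gene to pass. Its mean level was 76.5 ± 1.96 CPM in the Control libraries, 76.2 ± 5.04 CPM with BGP and 65.6 ± 2.44 CPM with NaHPO4 (SD, n = 3). It fell with NaHPO4 (log2FC -0.22, edgeR's quasi-likelihood test, adjusted p = 0.00128), and between the phosphates BGP was the higher group (log2FC 0.22, edgeR's quasi-likelihood test, adjusted p = 0.0023). The counts of 1 and 1 stand beside the 7.38% and 5.38% given above. Compared to Control, 0 of 7 passed with BGP, with 1 at an unadjusted edgeR p below 0.05. *Sp1* passed there without NaHPO4 replicate 1.

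Among 20 partners and cofactors of RUNX2 and TWIST1, which include CBFβ, the E proteins and the TLE corepressors, 2 passed with BGP (2.53% of all tested genes), 4 with NaHPO4 (7.38%) and 2 between the phosphates (5.38%). *Hdac7*, a deacetylase that represses RUNX2, rose with BGP from 47.8 ± 4.06 to 56.6 ± 1.65 CPM (log2FC 0.24, edgeR's quasi-likelihood test, adjusted p = 0.0244) and with NaHPO4 (log2FC 0.20, edgeR's quasi-likelihood test, adjusted p = 0.0386), where its libraries overlapped with Control. *Maf*, a RUNX2 cofactor, fell with BGP (log2FC -0.14, edgeR's quasi-likelihood test, adjusted p = 0.014). Its NaHPO4 libraries also lay below Control, without passing (log2FC -0.09, edgeR's quasi-likelihood test, adjusted p = 0.0977). Leaving out any of the 6 Control and BGP libraries removed *Hdac7* or *Maf* from the list, so that 1 gene remained. *Zfp521*, an antagonist of RUNX2, fell with NaHPO4 (log2FC -0.24, edgeR's quasi-likelihood test, adjusted p = 0.000266), and so did the corepressor *Tle3* (log2FC -0.16, edgeR's quasi-likelihood test, adjusted p = 0.024), while the TWIST1 partner *Tcf4* rose (log2FC 0.15, edgeR's quasi-likelihood test, adjusted p = 0.00581). *Tle3* and *Zfp521* were higher with BGP than with NaHPO4, by a log2FC of 0.20 and 0.17. Without NaHPO4 replicate 3, 2 genes passed with NaHPO4 (*Tcf4* and *Zfp521*). Between the phosphates, *Tle3* alone passed without that library, without BGP replicate 2 or without BGP replicate 3.

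Of 20 other transcription factors of the lineage, 4 passed with BGP (2.53% of all tested genes), 5 with NaHPO4 (7.38%) and 4 between the phosphates (5.38%). *Bhlhe40*, a clock-related repressor that is induced during osteoblast differentiation, was at 57.1 ± 3.38 CPM in Control and rose to 79.8 ± 2.24 CPM with BGP (log2FC 0.48, edgeR's quasi-likelihood test, adjusted p = 1.55e-09) and to 69.0 ± 2.05 CPM with NaHPO4 (log2FC 0.27, edgeR's quasi-likelihood test, adjusted p = 9.15e-05). The SoxC factor *Sox4* rose with BGP (log2FC 0.24, edgeR's quasi-likelihood test, adjusted p = 0.000223). *Cebpb* fell with both treatments (log2FC -0.26 and -0.27) and *Cebpd* with BGP (log2FC -0.35, edgeR's quasi-likelihood test, adjusted p = 0.000159). *Ctnnb1*, which encodes the Wnt effector β-catenin, fell with NaHPO4 from 2753 ± 49.4 to 2501 ± 42.9 CPM (log2FC -0.14, edgeR's quasi-likelihood test, adjusted p = 0.00145), and *Trps1*, a GATA-type repressor, rose (log2FC 0.12, edgeR's quasi-likelihood test, adjusted p = 0.0288). The remaining gene that rose with NaHPO4 was *Mef2c* (log2FC 0.13), named after its values were seen. Without Control replicate 1, 3 genes passed with NaHPO4 (*Bhlhe40*, *Cebpb* and *Ctnnb1*). Between the phosphates *Bhlhe40*, *Sox4* and *Ctnnb1* were higher with BGP. *Cebpd* was lower with BGP, although its BGP and NaHPO4 libraries overlapped. Without BGP replicate 3 only *Bhlhe40* and *Sox4* passed between the phosphates.

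Bone genes that RUNX2 or SP7 are known to bind or drive were counted next. Of 18 tested, 6 rose and 0 fell with BGP, where 1.86% of tested genes rose and 0.665% fell, and 4 rose and 10 fell with NaHPO4, where 3.43% rose and 3.95% fell. Some of them, *Dmp1* among them, were examined by the study itself on these samples, and the list is not independent evidence of a direction. *Dmp1*, a mineralization protein of osteocytes, rose from 76.0 ± 10.4 CPM in Control to 552 ± 41.8 CPM with BGP (log2FC 2.86, edgeR's quasi-likelihood test, adjusted p = 1.2e-28) and 349 ± 30.3 CPM with NaHPO4 (log2FC 2.19, edgeR's quasi-likelihood test, adjusted p = 3.89e-25). *Spp1* (osteopontin) and the pyrophosphate-producing enzyme gene *Enpp1* also rose with both. *Spp1* had a log2FC of 1.48 with BGP and 1.97 with NaHPO4, and *Enpp1* 2.63 and 1.94. *Tnfrsf11b*, encoding the RANKL decoy osteoprotegerin, rose by a log2FC of 0.14 and 0.33. The vitamin D receptor gene *Vdr* went in opposite directions, with a log2FC of 0.26 with BGP, where its libraries overlapped with Control, and -0.29 with NaHPO4 (edgeR's quasi-likelihood test, adjusted p = 0.000585 and 6.73e-05). The osteocalcin gene *Bglap2* fell with NaHPO4 by a log2FC of -0.14 (edgeR's quasi-likelihood test, adjusted p = 0.00591). Near-identical *Bglap*, named after its values were seen, fell by -0.15 (edgeR's quasi-likelihood test, adjusted p = 0.0146). These genes can share reads, so the value of each is uncertain, although both moved in the same direction. Between the phosphates 10 of 18 were higher and 2 lower with BGP, where 3.33% and 2.05% of tested genes were. Of 13 tested genes of the BMP pathway, which acts upstream of DLX and MSX, 0 passed in each comparison by edgeR's quasi-likelihood test, DESeq2, limma and the likelihood ratio test, against 2.53%, 7.38% and 5.38% of all tested genes by the first of these. At an unadjusted edgeR p below 0.05 there were 4, 3 and 2, against 13.4%, 19.9% and 16.9% of all tested genes. Scaling by total counts called *Bmpr2* with NaHPO4. *Bmp2* had no counts to test.

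**Figure D4:**
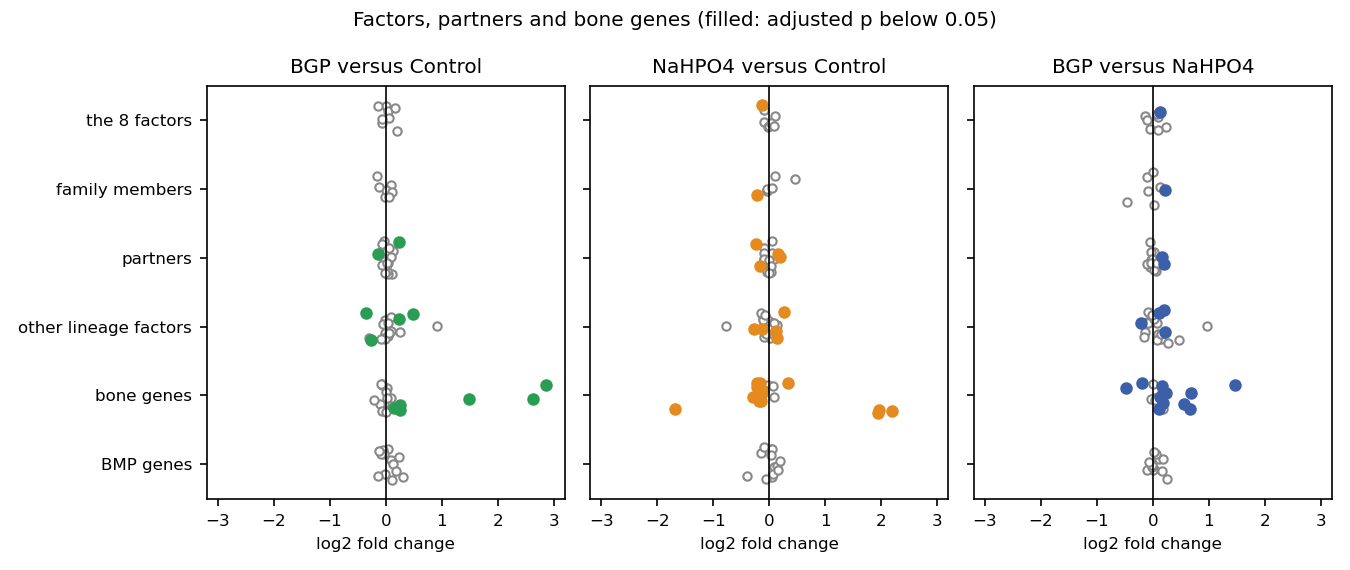
Log2 fold change of each tested gene, by list (rows), in the 3 comparisons (panels); each point is a gene, filled where its edgeR adjusted p was below 0.05 and open otherwise, and the vertical scatter within a row carries no value. The 8 factors lie within 0.24 of 0, whereas bone genes reach 2.86 with BGP and 2.19 with NaHPO4.

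The genes whose level ran most closely with *Sp7* over the 9 libraries, by Pearson's r of log2 CPM, were *Zfp862-ps* (r = 0.995), *Gm44667* (r = 0.985) and *Git1* (r = 0.978), and for *Dlx5* they were *Lrig1* (r = 0.987), *Rpl4* (r = 0.979) and *Selenow* (r = 0.973). These values describe 9 libraries that share treatments and depth and were selected as the highest among 13679 genes. *Zfp862-ps* had group means of 373 (Control), 384 (BGP) and 333 CPM (NaHPO4).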

How the data were processed

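PolyA RNA sequencing of 9 MC3T3-E1 libraries was analysed, with groups and replicate numbers taken from the sample labels. The authors deposited raw read counts per Ensembl gene, mapped to GRCm39 after FastQC, and a second table, deposited as a TMM-scaled signal equal to the counts times a factor per library (1.01 to 1.32), which served only in an alternative. The study's methods name the AIR (Artificial Intelligence RNA-seq) software for this step, while the aligner and counting program within it are not given in the sources used here. All columns belonged to the study. Samples of the other experiments were not analysed here.

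Counts were filtered with filterByExpr (count minimum 10, 13679 genes), scaled by TMM and fitted over all 9 libraries with glmQLFit and glmQLFTest of edgeR 4.0.16 (R 4.3.3). P-values were Benjamini-Hochberg adjusted over all tested genes, and genes passed at an FDR below 0.05. SEs came from the F statistic. Depth was 21390839 to 28234404 counts per library, so that errors of low genes hold counting error. Levels between genes are CPM per kilobase of merged exons of a later GENCODE annotation of GRCm39. Promoter windows are RefSeq sequences on GRCm38.p6.

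The 8 factors and the further lists were chosen with earlier results of these data known. All 8 were named with every library. Of the lists, genes that passed were named, all for up to 6 and otherwise the 6 with the lowest p, with the 3 genes most correlated with each factor that passed. Replicate numbers were checked for pairing, gave only weak correlations and were not used to pair the libraries in the main fit. Alternatives were the likelihood ratio test, DESeq2 1.42.0, limma 3.58.1 on log2(value + 1) of the TMM table, other scalings and filters, a fit of the 2 groups compared, a replicate block, other thresholds and each library left out. For the lists they were added after the data were seen. On simulated data of BGP versus Control among 13527 genes, 97 of 100 changes of 0.5 and 100 of 100 changes of 1 on the log2 scale were recovered, with 14 false calls. These changes were placed only in genes above a minimum mean level. Recovery of smaller changes, or of changes in lower genes, was not simulated.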

Additional observations from a re-analysis of the deposited data

Results flagged for a closer look

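*Sp7* differed between the 2 phosphate treatments by a direct test of BGP against NaHPO4. The log2FC was 0.13 (edgeR's quasi-likelihood test, adjusted p = 0.00994), with all 3 BGP libraries (560 to 570 CPM) above all 3 NaHPO4 libraries (504 to 527 CPM), whereas compared to Control the log2FC was 0.03 with BGP and -0.09 with NaHPO4 and neither passed. The difference did not pass with scaling by total counts, without BGP replicate 1 or without NaHPO4 replicate 3.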

How the results depend on the processing

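BGP compared to Control gave 0 of 8 factors in all alternatives. With NaHPO4 compared to Control, where 1 factor passed, the count was 0 at an FDR of 0.01, 0 with a minimum log2FC of 0.5, 0 with scaling by total counts and 2 with DESeq2 (*Dlx5* and *Sp7*). Leaving out single libraries gave 0 to 2: 0 without Control replicate 3, 2 without Control replicate 2 (*Dlx5* and *Sp7*) and 2 without NaHPO4 replicate 1 (*Runx2* and *Sp7*). For BGP compared to NaHPO4, where 1 factor passed, the count was 0 with the minimum log2FC and 0 with total counts, and 0 to 2 with single libraries left out: 0 without BGP replicate 1 and 2 without NaHPO4 replicate 1 (*Runx2* and *Sp7*). The cause was not tested. The TMM factors differed by group, at 1.0096 to 1.0168 in NaHPO4 libraries and 0.9888 to 1.0007 in all others. The choice of scaling thus acts along the comparisons with NaHPO4. Total counts moved the median log2FC of all genes with NaHPO4 to 0.025 and that between the phosphates to -0.029. Log2FC values changed sign only among those that did not pass and only when a library was left out. The ranges were -0.0053 to 0.0237 for *Runx2*, -0.0827 to 0.231 for *Msx2* and -0.0145 to 0.268 for *Runx1* with BGP, -0.129 to 0.0367 for *Dlx3*, -0.0731 to 0.075 for *Msx1* and -0.0305 to 0.284 for *Msx2* with NaHPO4, and -0.165 to 0.0306 for *Msx2* and -0.0956 to 0.188 for *Runx1* between the phosphates. The largest absolute log2FC over 432 refitted values was 0.34 (*Dlx3*), and 0 exceeded 0.5.

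In the fit with a replicate block, the counts were 0, 1 and 1, with *Dlx5* at an edgeR adjusted p of 0.0171 and *Sp7* at 0.0151. Correlations of deviations were weak throughout, at -0.0092 to 0.0426 for same-numbered libraries and -0.0456 to 0.0239 for different numbers. The highest values were those of same-numbered Control and NaHPO4 libraries (0.0301, 0.0426 and 0.0409). Depth limits *Runx1* and *Msx2* most.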
